A study of Mus musculus with 15 samples.

Results

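The genes described are 6 cation channels that open, or have been proposed to open, when the cell membrane is stretched: the Piezo channels Piezo1 and Piezo2, the vanilloid channels Trpv2 and Trpv4, and the canonical channels Trpc1 and Trpc6. They were chosen by name, as channels of stretch-activated calcium entry, and each had 1 row among the 56980 genes of the table. RNA was sequenced from the tibialis anterior (TA, a hindlimb muscle) and the heart of mice labelled DBA/2J-mdx, a dystrophic strain that lacks dystrophin, after gavage with vehicle or with dasatinib and quercetin (D + Q, a pair of drugs given to clear senescent cells). The TA mice were treated from 3 to 5 months of age (2 months) and the heart mice from 12 to 16 months (4 months), 2 times per week. The 15 libraries fell into 4 groups, with 4 D + Q–treated TA (all labelled male), 4 vehicle-treated TA (2 males and 2 females), 3 D + Q–treated hearts (1 male and 2 females) and 4 vehicle-treated hearts (2 males and 2 females). All 4 groups carried the mdx genotype, so no value below compares dystrophic with healthy muscle, and a difference between tissues cannot be told apart from one between ages or lengths of treatment. Between the D + Q groups it cannot be told apart from one between sexes either, as described below. The labels do not name the animals, and p-values measure the spread between these libraries.

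Without dystrophin the muscle membrane is poorly anchored to the cytoskeleton, and stretch lets more calcium into the fibre. Calcium that enters can activate calpains, which are proteases, and the phosphatase calcineurin, which sends NFAT transcription factors to the nucleus. Piezo proteins are large channels whose blades sense membrane tension directly, whereas for the TRP channels a direct response to stretch is less settled, and several of them also answer to lipids, heat, cell swelling or emptied calcium stores.

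Expression was measured as TPM, a transcript abundance that is scaled to gene length and to the same total in each library, so that levels of different genes can be compared within a library. TPM keeps no read depth, and the depth of each library is therefore unknown. Tests used limma on log2(TPM + 0.5), which understates the change of genes near 0.5 TPM, and calls required a Benjamini-Hochberg adjusted p under 0.05 with a log2 fold change beyond 0.5 in either direction. The fit of the TA libraries held 1 surrogate variable, a hidden factor estimated from the data, and the fit of the heart libraries held labelled sex. Tissues were compared in a single fit of the 4 group means without covariates.

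Some libraries bear on what follows. In 14 of 15 libraries Xist and Y-linked transcripts matched the labelled sex. D + Q–treated heart replicate 3, carries the label male, but Xist stood at 47.2 TPM and the highest Y-linked gene at 0.0279 TPM, so heart results are given with and without it. Tissue labels matched defining transcripts, with 5 skeletal muscle markers summing to 34503 to 43233 TPM in TA and 1329 to 1782 TPM in heart, and 5 ventricular markers summing to 29.3 to 128 TPM in TA and 21148 to 28023 TPM in heart. The 4 vehicle-treated hearts also held atrial transcripts, since Myl7, the atrial myosin light chain, was between 94.1 and 730 TPM there and between 3.46 and 4.54 TPM in the 3 D + Q–treated hearts. The 5 red-cell markers summed to 346 to 1231 TPM in vehicle-treated hearts and 26.8 to 122 TPM in D + Q–treated hearts. D + Q–treated heart replicate 2 held traces of skeletal muscle, with Myh4 at 10.2 TPM against at most 0.33 TPM in the other hearts. In whole tissue, fewer cells of a type and less RNA per cell cannot be told apart.

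Piezo1, on chr8:123208437-123278072 of GRCm39 (minus strand, 51 exons), was the most abundant of the 6 transcripts in every group. It forms the tension-gated channel of endothelial cells, red cells, fibroblasts and many other cells. In vehicle-treated TA its level was 9.90, 10.7, 11.5 and 6.98 TPM, and in D + Q–treated TA 13.7, 9.27, 6.72 and 12.1 TPM. Vehicle-treated hearts held 7.36, 8.72, 8.74 and 8.17 TPM, and D + Q–treated hearts 7.63, 7.05 and 6.70 TPM. The group means ran from 10.4 TPM ± 3.09 (SD, n = 4) in D + Q–treated TA through 9.77 ± 1.97 (n = 4) in vehicle-treated TA and 8.25 ± 0.647 (n = 4) in vehicle-treated heart to 7.13 ± 0.472 (n = 3) in D + Q–treated heart, and each group overlapped the next in this order. The TA libraries spread widely within both treatments, whereas the hearts kept to a narrow range. As a share of the summed TPM of the 6 channels, Piezo1 accounted for 54.3% ± 3.95 in vehicle-treated TA, 57.2% ± 3.45 in D + Q–treated TA, 52.2% ± 1.11 in vehicle-treated heart and 46.7% ± 2.73 in D + Q–treated heart. The Piezo1 gene overlaps Ctu2 on the opposite strand, and reads of the overlap cannot be told apart because the strand setting of the counting was not given in the sources used here.

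Piezo2, on chr18:63143284-63520260 (minus strand, 52 exons), was the only one of the 6 whose 4 groups did not overlap one another at any step of their order. It is best known as the channel of touch and of position sense in sensory neurons. Its level was 1.34, 2.79, 1.57 and 3.52 TPM in vehicle-treated TA and 1.28, 1.22, 1.22 and 1.17 TPM in D + Q–treated TA. It was 0.93, 0.93, 0.78 and 1.07 TPM in vehicle-treated hearts and 0.32, 0.30 and 0.40 TPM in D + Q–treated hearts. Vehicle-treated TA thus stood highest and most scattered (2.31 TPM ± 1.03), and D + Q–treated TA was tightly grouped (1.22 ± 0.0441). Vehicle-treated heart (0.928 ± 0.121) and D + Q–treated heart (0.338 ± 0.0551) followed. Of all genes tested, groups did not overlap in 1.52% between the TA treatments and in 15.2% between the heart treatments. How many genes separate at every step was not counted. The TA values of Piezo2 also divided by labelled sex, as described below. Piezo1 exceeded Piezo2 by a median factor of 5.57 in vehicle-treated TA, 8.93 in D + Q–treated TA, 8.64 in vehicle-treated heart and 23.8 in D + Q–treated heart.

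Trpv2, on chr11:62465304-62491341 (plus strand, 16 exons), encodes a calcium-permeable channel that is abundant in macrophages and has been described at the membrane of dystrophic fibres. Vehicle-treated TA held 3.29, 2.68, 4.93 and 1.85 TPM and D + Q–treated TA 5.20, 3.91, 1.66 and 5.08 TPM. Vehicle-treated hearts held 1.05, 1.96, 1.69 and 1.27 TPM, and D + Q–treated hearts 2.10, 2.65 and 1.45 TPM. All 4 groups overlapped their neighbours in the order of means, which were 3.96 TPM ± 1.64 in D + Q–treated TA, 3.19 ± 1.30 in vehicle-treated TA, 2.07 ± 0.598 in D + Q–treated heart and 1.49 ± 0.409 in vehicle-treated heart.

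Trpv4, on chr5:114760209-114796914 (minus strand, 16 exons), encodes a channel opened by cell swelling, warmth and lipid mediators. Its level was 0.72, 1.64, 2.05 and 0.78 TPM in vehicle-treated TA and 1.16, 1.37, 1.30 and 1.44 TPM in D + Q–treated TA. It was 1.26, 2.05, 2.71 and 1.55 TPM in vehicle-treated hearts and 2.29, 2.14 and 2.29 TPM in D + Q–treated hearts. The vehicle groups were scattered (SD 0.652 TPM in TA and 0.634 TPM in heart) and the D + Q groups tight (SD 0.122 TPM and 0.0821 TPM), with overlap between neighbours throughout. Trpv2 exceeded Trpv4 in all 8 TA libraries, by 1.27-fold to 4.54-fold, while in the 7 hearts the ratio lay between 0.62 and 1.24.

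Trpc1, on chr9:95587112-95632428 (minus strand, 13 exons), encodes a subunit that joins other TRPC channels and is tethered by Homer and caveolin scaffolds. Vehicle-treated TA held 1.15, 1.32, 1.19 and 0.74 TPM and D + Q–treated TA 0.77, 1.26, 1.17 and 0.67 TPM. Vehicle-treated hearts held 2.65, 2.91, 2.82 and 3.03 TPM, and D + Q–treated hearts 3.06, 3.79 and 3.16 TPM. Every heart lay above every TA library, and the 3 D + Q–treated hearts lay just above the 4 vehicle-treated hearts. Trpc1 made up 21.8% ± 2.03 of the summed channel TPM in D + Q–treated heart and 18.1% ± 1.52 in vehicle-treated heart, against 5.89% ± 3.09 and 6.12% ± 0.83 in D + Q–treated and vehicle-treated TA.

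Trpc6, on chr9:8492905-8682359 (plus strand, 13 exons), encodes a channel opened by diacylglycerol that is known from smooth muscle, kidney podocytes and the stressed heart. It was the scarcest of the 6 and stayed under 0.5 TPM in 14 of 15 libraries. Its level was 0.31, 0.40, 0.17 and 0.20 TPM in vehicle-treated TA, 0.20, 0.21, 0.13 and 0.26 TPM in D + Q–treated TA, 0.51, 0.40, 0.34 and 0.37 TPM in vehicle-treated hearts and 0.25, 0.24 and 0.0449 TPM in D + Q–treated hearts. The vehicle-treated hearts lay highest and did not overlap the D + Q–treated hearts. Because only 1 library reached 0.5 TPM, Trpc6 was in none of the fits, and its differences were tested one by one with an exact permutation test.

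Together the 6 channels summed to 14.1 to 21.4 TPM in vehicle-treated TA, 12.2 to 22.3 TPM in D + Q–treated TA, 13.8 to 17.1 TPM in vehicle-treated heart and 14.0 to 16.2 TPM in D + Q–treated heart, so that these ranges overlapped in every pair of groups.

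**Figure D1:**
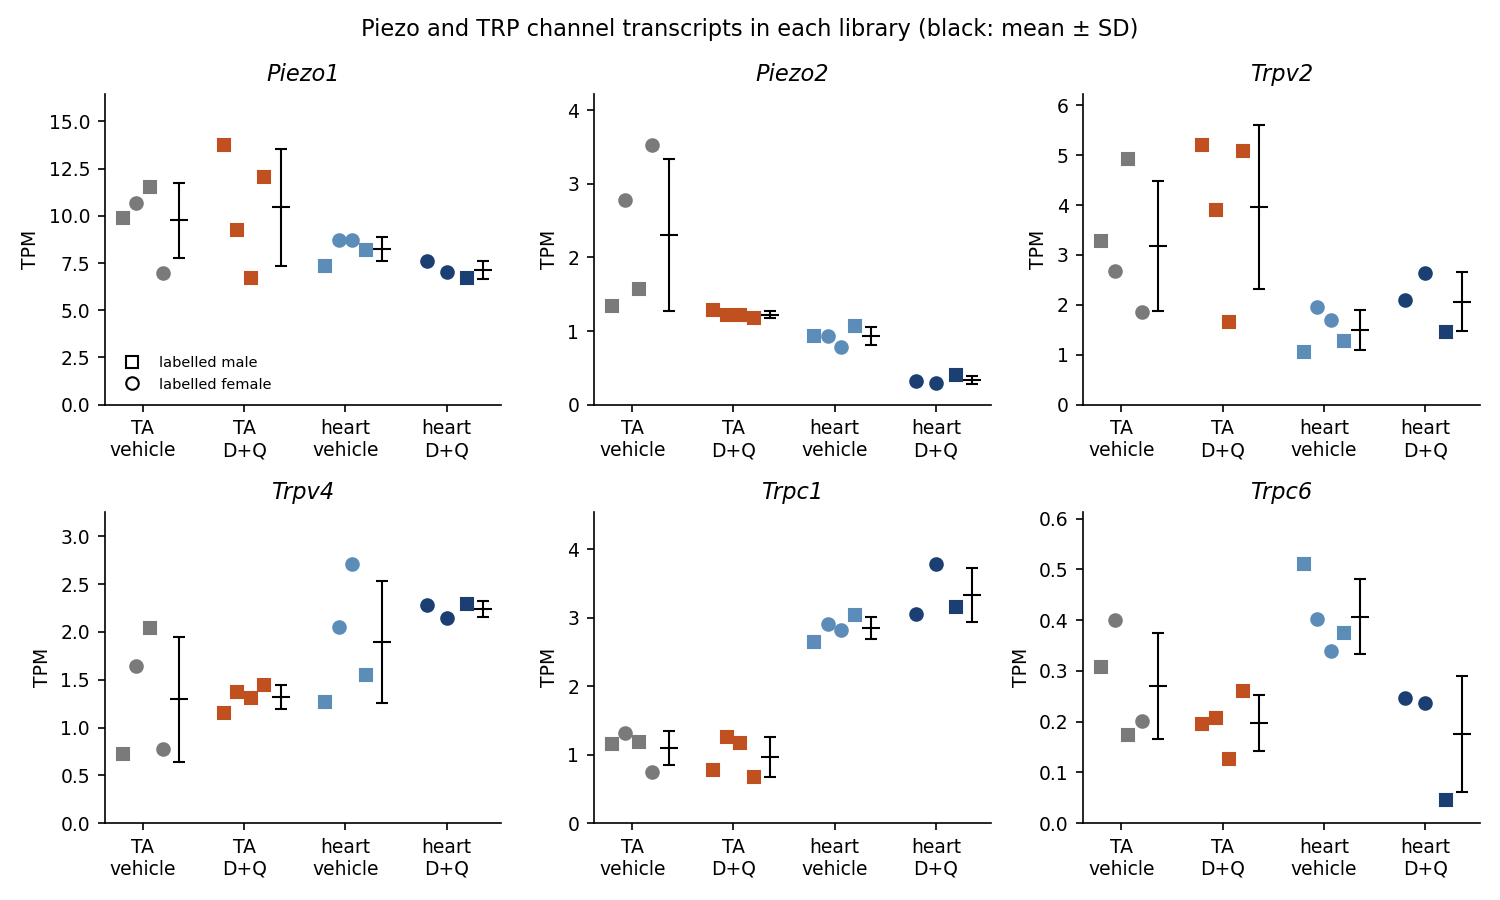
TPM of the 6 channels in each of the 15 libraries, by group, with squares for libraries labelled male, circles for those labelled female, and black bars for the mean ± SD of each group (n = 4, and n = 3 for D + Q–treated heart). Piezo2 steps down from vehicle-treated TA to D + Q–treated heart without overlap between neighbouring groups, and Trpc1 lies between 2.65 and 3.79 TPM in the hearts and at most 1.32 TPM in TA.

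The first comparison asked whether D + Q changed these channels in TA. None of the 5 channels that passed the filter (at least 0.5 TPM in at least 3 libraries of the fit) was called by limma, and none had an unadjusted p under 0.05. Over all 16298 genes tested, 0% were called, with 488 at an unadjusted p under 0.05. The study, with a count test on these samples, did report changed genes in TA. Piezo2 had the largest difference of the 5, with all 4 D + Q–treated libraries below all 4 vehicle-treated ones (1.22 against 2.31 TPM), a log2 fold change of -0.58 (SE 0.26, 95% interval -1.16 to 0.012), an unadjusted p of 0.0539 and an adjusted p of 0.999. Groups did not overlap in 1.52% of all genes tested. The other 4 lay near 0, with log2 fold changes of -0.092 (95% interval -0.44 to 0.26) for Piezo1, 0.0039 (-0.49 to 0.50) for Trpv2, 0.040 (-0.56 to 0.64) for Trpv4 and -0.087 (-0.59 to 0.42) for Trpc1. The mean TPM of Piezo1 was higher under D + Q (10.4 against 9.77), opposite in sign to its adjusted value. Without the surrogate variable Piezo1 was at 0.068 and Trpv2 at 0.25. The directions of Piezo1, Trpv2, Trpv4 and Trpc1 were not stable, since at least 1 alternative fit turned each of them. The median over the 5 channels was -0.087, beside -0.072 over all genes. Trpc6 averaged 0.198 TPM ± 0.0557 under D + Q and 0.271 ± 0.105 under vehicle, a difference of -0.0729 TPM (two-sided exact permutation test, p = 0.286, adjusted p = 0.381 over 4 such tests, smallest possible p 0.0286).

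The Piezo2 values of TA divided by labelled sex as well as by treatment. The vehicle-treated females (replicates 2 and 4) held 2.79 and 3.52 TPM, whereas the vehicle-treated males (replicates 1 and 3) held 1.34 and 1.57 TPM, close to the 1.17 to 1.28 TPM of the D + Q–treated mice, all of them male. With labelled sex in place of the surrogate variable, or in labelled males only, the log2 fold change was -0.18 in both fits (adjusted p = 1.00, limma). Without D + Q replicate 3 it was -0.23, and over all 8 fits that left out 1 library it ranged from -0.75 to -0.23. Vehicle-treated hearts did not show this order, with 0.931 and 1.07 TPM in males against 0.929 and 0.778 TPM in females. The D + Q–treated heart labelled male held 0.401 TPM, against 0.318 and 0.296 TPM in the labelled females. Xist and Y-linked transcripts of that heart labelled male did not match its label, so it gives no comparison of the sexes. These differences between sexes were not tested. The study, with a count test and the same thresholds, reported Piezo2 from these samples as downregulated by D + Q in both tissues. The direction of Piezo2 here is therefore not independent evidence. The absence of a call here comes from a different test, on TPM.

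The second comparison asked the same of the heart. Again none of the 5 channels passing the filter was called by limma, and 2 of them, Piezo2 and Piezo1, had an unadjusted p under 0.05. In all, 0.316% of the 16132 genes tested were called (17 higher and 34 lower under D + Q), and 2846 had an unadjusted p under 0.05. Piezo2 averaged 0.338 TPM under D + Q and 0.928 TPM under vehicle, a log2 fold change of -0.74 (SE 0.15, 95% interval -1.08 to -0.40), with adjusted p = 0.0977 (limma), and the 3 D + Q–treated hearts lay below all 4 vehicle-treated ones. Piezo2 passed the filter in heart only through the vehicle group, where it was high, so that a passing value had to differ in this direction. Piezo1 had a log2 fold change of -0.22 (SE 0.080, 95% interval -0.41 to -0.033, adjusted p = 0.221, limma), with overlapping groups. Trpv2 at 0.27 (95% interval -0.045 to 0.59), Trpv4 at 0.18 (-0.24 to 0.59) and Trpc1 at 0.18 (-0.089 to 0.45) had positive values that did not pass the test, although the Trpc1 groups did not overlap. Groups of the heart did not overlap in 15.2% of all genes tested. The median over the 5 channels was 0.18, beside -0.0025 over all genes.

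Trpc6 was the other channel whose hearts separated by treatment, at 0.176 TPM ± 0.114 under D + Q and 0.407 ± 0.0742 under vehicle. The difference was -0.23 TPM (two-sided exact permutation test, p = 0.0286, the smallest that 3 against 4 libraries allow, adjusted p = 0.114 over 4 tests). Without D + Q replicate 3, whose level was 0.0449 TPM, the difference was -0.165 TPM (exact permutation p = 0.0667, again the smallest possible).

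The heart results were recomputed without D + Q replicate 3, whose transcripts did not match its labelled sex. Piezo2 then had a log2 fold change of -0.74 (adjusted p = 0.294, limma), Piezo1 of -0.24 (adjusted p = 0.457), Trpv2 of 0.30 (adjusted p = 0.57) and Trpc1 of 0.21 (adjusted p = 0.63), while Trpv4 turned from 0.18 to -0.076. Atrial transcripts moved with the treatment groups of the heart, so each channel was also fitted with an atrial score, the mean log2 level of the atrial markers, in place of sex. That fit moved the median of all genes to 0.31, and in it Piezo2 was at -1.003, Piezo1 at 0.31, Trpc1 at 0.44, Trpv2 at 1.65 and Trpv4 at 1.68, with adjusted p from 0.835 to 0.866. Piezo1 thus lay at the median gene of that fit, and none of the 5 was called. In vehicle-treated heart replicates 1 to 4 the atrial score was 5.27, 7.05, 7.46 and 6.77, beside Piezo2 at 0.93, 0.93, 0.78 and 1.07 TPM. Myl7 was lowest in replicate 1 (94.1 TPM) and highest in replicate 2 (730 TPM). Treatment and atrial content cannot be told apart in these hearts. The summed fibroblast markers (5 genes) ranged from 520 to 753 TPM in vehicle-treated hearts and from 422 to 492 TPM in D + Q–treated hearts, and the Schwann cell markers (5 genes) from 5.15 to 7.49 TPM and from 4.20 to 6.21 TPM, with no marker of either list at 0 throughout. Of the fibroblast markers, Dcn (333 against 441 TPM) and Col1a1 (22.2 against 29.0 TPM) were lower in every D + Q–treated heart. Pdgfra (16.8 against 17.2 TPM), Lum (41.2 against 44.7 TPM) and Dpt (53.5 against 63.4 TPM) overlapped between the groups. No fibroblast marker was called. The summed smooth muscle and pericyte markers (5 genes) overlapped, at 397 to 585 TPM under vehicle and 474 to 514 TPM under D + Q. Of the contractile markers of smooth muscle, Myh11 (5.71 against 8.36 TPM) and Tagln (10.1 against 15.8 TPM) were lower in every D + Q–treated heart. Acta2, also contractile, overlapped between the groups (263 against 268 TPM). Rgs5, a pericyte marker, was higher in every D + Q–treated heart (209 against 178 TPM), and Notch3 overlapped (9.79 against 9.63 TPM). None of the 5 was called. The part of these cells in the Piezo2 and Trpc6 values was not tested.

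**Figure D2:**
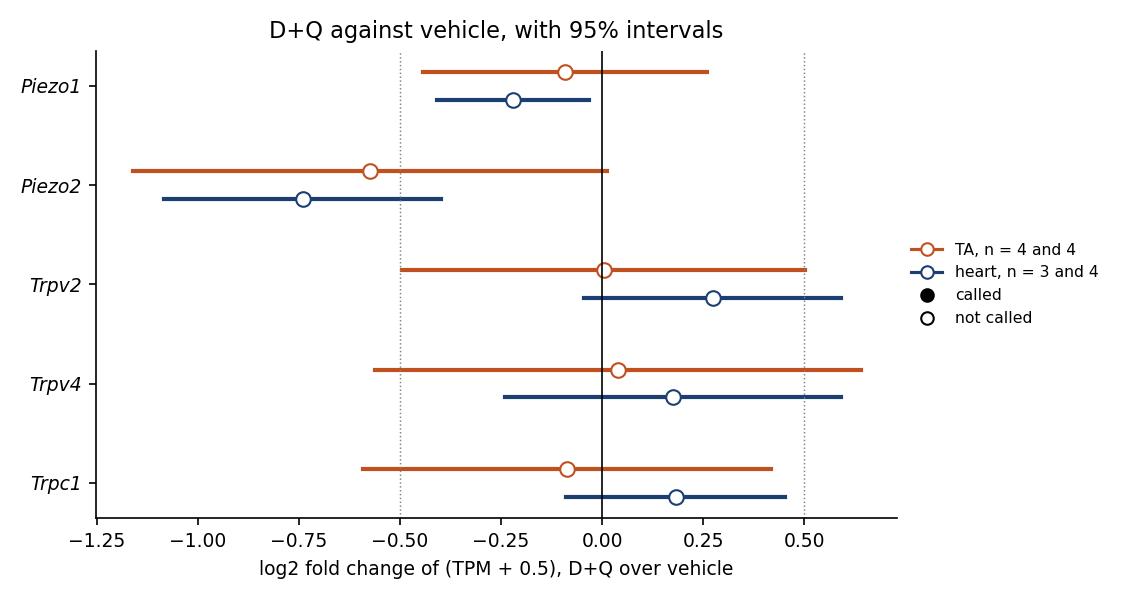
Log2 fold changes of D + Q over vehicle with 95% intervals for the 5 channels that passed the filter, in TA (orange) and heart (blue). Open circles mark genes that were not called, which are all 10 values, and dotted lines mark the fold change of 0.5 that a call required. In heart the intervals of Piezo2 and Piezo1 lie below 0, but Piezo2 entered that fit only through the vehicle group, where it was high.

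**Figure D3:**
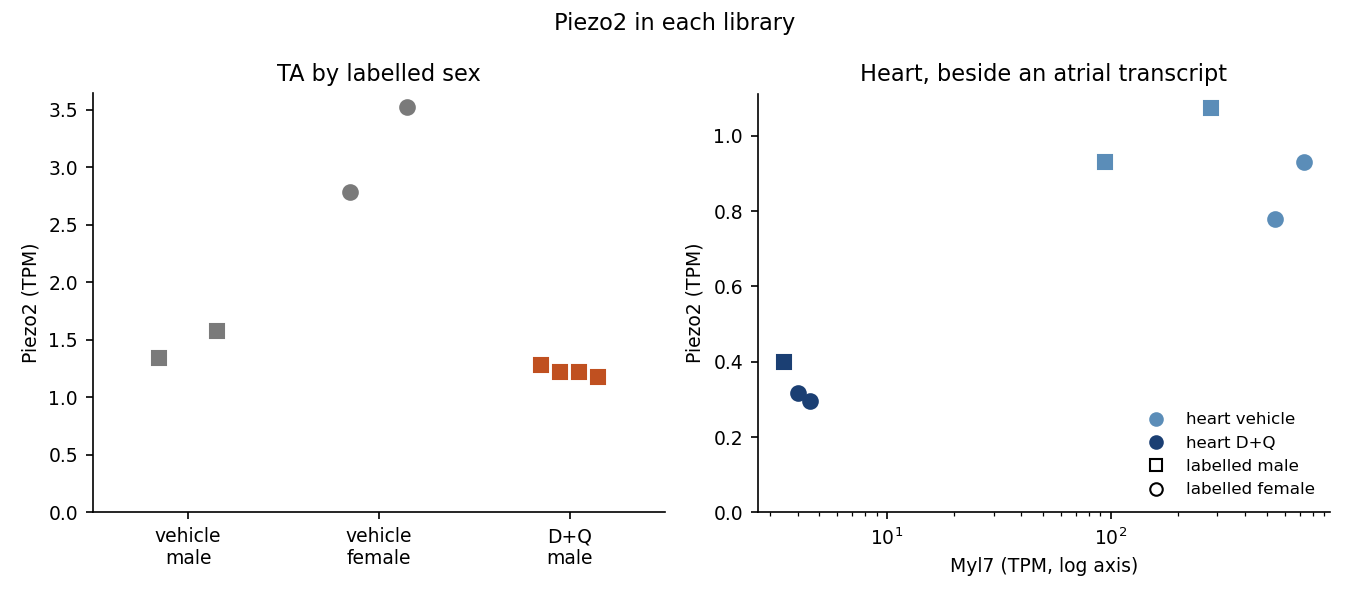
Piezo2 TPM in TA by treatment and labelled sex (left, 2 vehicle-treated males, 2 vehicle-treated females and 4 D + Q–treated males) and in heart against the TPM of the atrial transcript Myl7 on a log axis (right). In TA the 2 vehicle-treated females, at 2.79 and 3.52 TPM, stand above the other 6 libraries. In heart the groups separate on both axes, so treatment and atrial content cannot be told apart. Among the 4 vehicle-treated hearts alone Piezo2 does not rise with Myl7, which was not tested.

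Whether D + Q acted differently on the channels in the 2 tissues was tested as the difference of the effects in the fit of all 15 libraries. None of the 5 channels was called by limma, and none had an unadjusted p under 0.05, while 0.0616% of the 17868 genes tested were called. The difference (TA effect minus heart effect) was 0.14 for Piezo2 (95% interval -0.51 to 0.79), 0.26 for Piezo1 (-0.33 to 0.86), -0.11 for Trpv2 (-1.09 to 0.86), -0.14 for Trpv4 (-0.88 to 0.59) and -0.32 for Trpc1 (-0.84 to 0.19) on the log2 scale. These intervals are wide enough to hold differences larger than the effects themselves.

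The next comparisons asked how the channels stood in TA and in heart. Between the vehicle groups, Piezo2 and Trpv2 were called higher in TA and Trpc1 lower, 3 of the 5 channels tested, beside 36.7% of all 17868 genes. Piezo2 was 2.31 TPM in TA and 0.928 TPM in heart, a log2 fold change of 0.90 (SE 0.21, adjusted p = 0.00224). Trpc1 was 1.10 and 2.85 TPM, a log2 fold change of -1.08 (SE 0.16, adjusted p = 6.69e-05). For both genes the vehicle groups did not overlap, as held for 40.9% of all genes. Trpv2, at 3.19 and 1.49 TPM, had overlapping groups, a log2 fold change of 0.84 (SE 0.31) and an adjusted p of 0.038. Piezo1 at 0.21 (95% interval -0.19 to 0.62) and Trpv4 at -0.45 (-0.95 to 0.051) were not called. Trpc6 averaged 0.271 TPM in TA and 0.407 TPM in heart (two-sided exact permutation test, p = 0.0857, adjusted p = 0.171 over 4 tests).

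Between the D + Q groups, Piezo2 was again called higher in TA (1.22 against 0.338 TPM, log2 fold change 1.04, SE 0.22, adjusted p = 0.00147) and Trpc1 lower (0.967 against 3.33 TPM, -1.40, SE 0.18, adjusted p = 1.16e-05). These 2 of the 5 channels stood beside 37.3% of all genes called. With a pseudocount of 0.1 Piezo2 was at 1.60. Piezo2 reached the filter in heart only in the vehicle-treated libraries, and its D + Q levels in heart were all under 0.5 TPM. All 5 channels had an unadjusted p under 0.05, and the other 3 missed the adjusted threshold, with Piezo1 at 0.48 (adjusted p = 0.0745), Trpv2 at 0.73 (adjusted p = 0.0941) and Trpv4 at -0.59 (adjusted p = 0.0726). Trpv4 was lower in all 4 D + Q–treated TA than in all 3 D + Q–treated hearts, and the groups of Piezo2 and Trpc1 did not overlap either, as held for 46.7% of all genes. Trpc6 averaged 0.198 TPM in TA and 0.176 TPM in heart (two-sided exact permutation test, p = 0.743). Without D + Q–treated heart replicate 3, Piezo2 (1.09, adjusted p = 0.00446) and Trpc1 (-1.43, adjusted p = 8.85e-05) were still called and the other 3 were not. By Xist and Y-linked transcripts, every D + Q–treated TA was male and every D + Q–treated heart female. Tissue and sex therefore cannot be told apart between the D + Q groups, and labelled sex does not separate them. The 2 tissue contrasts use different libraries but 1 shared estimate of the spread.

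The median gene was itself higher in TA, by 0.16 on the log2 scale between the vehicle groups and by 0.094 between the D + Q groups, which rescaling by median-of-ratios factors brings to near 0. After that rescaling Trpv2 was no longer called between the vehicle groups (0.69, adjusted p = 0.0591), and Trpv4 was called lower in TA between the vehicle groups (-0.59, adjusted p = 0.0391) and between the D + Q groups (-0.68, adjusted p = 0.027), while the calls of Piezo2 and Trpc1 held. Over all genes, rescaling changed the vehicle contrast from 4038 higher and 2518 lower to 2926 higher and 3288 lower. The Trpv2 call was also lost without the filter on low TPM (adjusted p = 0.0778) and without any one of vehicle-treated TA replicates 1 (0.81, adjusted p = 0.0791), 2 (0.89, adjusted p = 0.0535) or 3 (0.63, adjusted p = 0.123) or vehicle-treated heart replicates 1 (0.73, adjusted p = 0.105), 3 (0.89, adjusted p = 0.0527) or 4 (0.79, adjusted p = 0.0865). Trpv4 was called between the vehicle groups without TA replicate 3 (-0.64, adjusted p = 0.0328). Without D + Q–treated TA replicate 3, Piezo1 (0.66, adjusted p = 0.00741) and Trpv2 (1.04, adjusted p = 0.00757) were called between the D + Q groups.

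**Figure D4:**
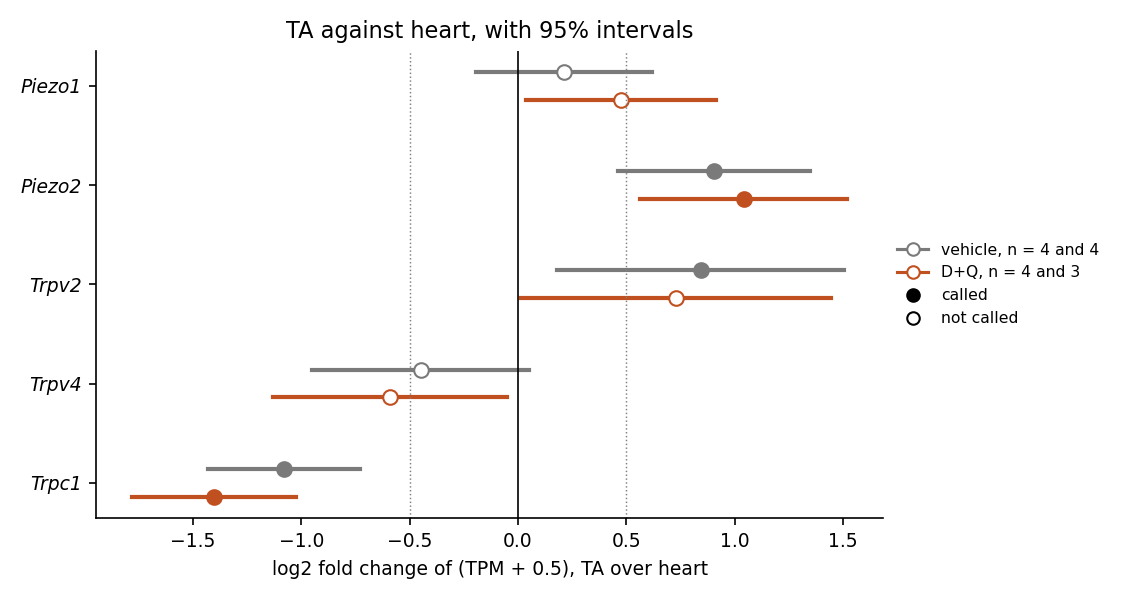
Log2 fold changes of TA over heart with 95% intervals for 5 channels, between the vehicle groups (grey, n = 4 and 4) and between the D + Q groups (orange, n = 4 and 3). Filled circles mark called genes, which are Piezo2 and Trpc1 in both contrasts and Trpv2 between the vehicle groups, and dotted lines mark the fold change of 0.5 that a call required.

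Piezo1 and Trpv2 went up and down together across the libraries. Taken as deviations from the group mean of log2(TPM + 0.5), they correlated with Pearson's r = 0.88 over 15 libraries, 0.92 over the 8 TA libraries and 0.75 over the 7 hearts, the highest of the 15 pairs of channels. In TA both were high in D + Q replicate 1 (13.7 and 5.20 TPM), D + Q replicate 4 (12.1 and 5.08 TPM) and vehicle replicate 3 (11.5 and 4.93 TPM), and both were low in D + Q replicate 3 (6.72 and 1.66 TPM) and vehicle replicate 4 (6.98 and 1.85 TPM). The high and the low libraries thus came from both treatments. The same 3 libraries had the highest values of the surrogate variable, which correlated with Piezo1 at r = 0.89 and with Trpv2 at r = 0.88 over the 8 TA libraries and was estimated from the same values. Piezo2 ran the other way from Trpv2 (r = -0.50 over 15 libraries), and Trpc1 followed neither Piezo1 (-0.13) nor Trpv2 (-0.042). These correlations describe libraries whose values share one total and one mixture of cells, and no test was made of them.

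Macrophage markers moved with this pair. The summed TPM of 5 macrophage markers (Adgre1, Csf1r, Cd68, C1qa and Mrc1) was 216, 165, 113 and 200 in D + Q–treated TA and 157, 184, 192 and 104 in vehicle-treated TA, which puts the libraries almost in the order of Piezo1. For correlation, the log2 deviations of the markers in each list were averaged, rather than their TPM summed. Over the 8 TA libraries the deviations of Piezo1 correlated with the macrophage average at r = 0.99. With the Schwann cell, smooth muscle and pericyte, endothelial and fibroblast averages r was 0.80, 0.75, 0.66 and 0.51. Over the 7 hearts Piezo1 correlated with the macrophage average at 0.48, while Trpv2 did so at 0.93. None of the 5 macrophage markers was at 0 in any group. The part of these cells in the levels of Piezo1 and Trpv2 was not tested.

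**Figure D5:**
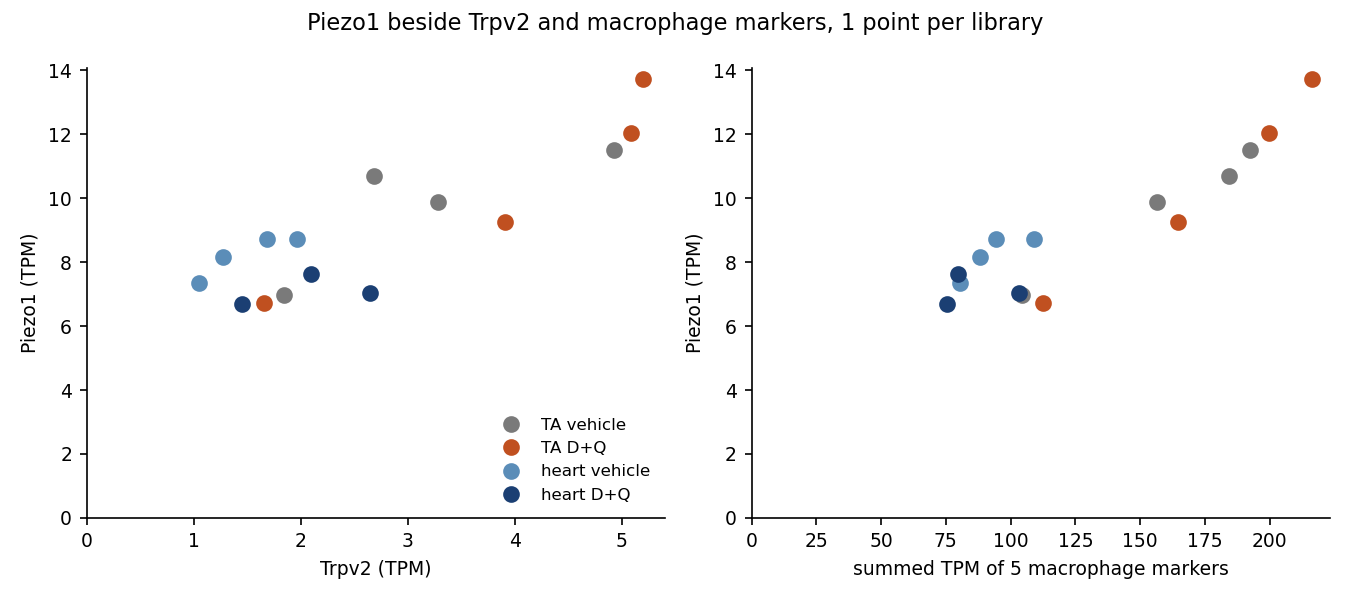
Piezo1 TPM against Trpv2 TPM (left) and against the summed TPM of 5 macrophage markers (right), with 1 point for each of the 15 libraries coloured by group. In TA (grey and orange) Piezo1 climbs from 6.72 to 13.7 TPM along both axes, with D + Q–treated and vehicle-treated libraries mixed along the trend, while the hearts (blue) cluster at the low end.

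Since these 2 channels moved together, their promoters are shown, as the 250 bases before and 50 bases after the start of the canonical transcript in GENCODE M39 (GRCm39). Capitals mark GGGCGG, the core of the GC box, and TATAAA, the TATA box, each searched on both strands.
Piezo1, chr8:123278023-123278322 (minus strand): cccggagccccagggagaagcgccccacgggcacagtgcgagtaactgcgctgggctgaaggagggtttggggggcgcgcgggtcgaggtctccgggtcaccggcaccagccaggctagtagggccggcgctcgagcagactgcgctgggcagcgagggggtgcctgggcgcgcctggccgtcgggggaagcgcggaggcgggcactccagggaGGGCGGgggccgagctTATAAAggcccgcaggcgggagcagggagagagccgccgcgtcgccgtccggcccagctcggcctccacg
Trpv2, chr11:62465054-62465353 (plus strand): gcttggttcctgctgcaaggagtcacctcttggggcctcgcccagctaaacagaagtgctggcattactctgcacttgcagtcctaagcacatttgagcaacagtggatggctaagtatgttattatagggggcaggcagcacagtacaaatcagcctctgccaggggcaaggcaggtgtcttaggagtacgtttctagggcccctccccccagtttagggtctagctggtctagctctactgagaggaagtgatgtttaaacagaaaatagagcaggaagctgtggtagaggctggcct
The Piezo1 window was 75.3% G and C and held 1 GC box, found in 42.5% of 21757 promoters of this length, and 1 TATA box, found in 13.2%. The Trpv2 window was 52.3% G and C and held neither. The AP-1 motif TGANTCA, found in 7.15% of promoters, and the E-box CACGTG, found in 7.82%, were in neither window. No motif of the 4 searched was thus shared by the pair in these windows.

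For each channel the 3 genes whose deviations followed it most closely were taken from 14865 genes measured in both tissues (14866 for Trpc6). For Piezo1 they were Tubb4a (r = 0.97), a tubulin, Steap3 (0.97), a metalloreductase, and Nos3 (0.97), the nitric oxide synthase of endothelium. For Trpv2 they were Psd4 (0.96), Gm49339 (0.96) and Ctsz (0.94), a lysosomal cathepsin. For Piezo2 they were Golim4 (0.89), a Golgi membrane protein, Tceal7 (0.89) and Tnnt1 (0.89), the troponin T of slow skeletal fibres. The likeness to Tnnt1 was seen in TA (r = 0.94) and not in heart (0.032). Golim4 (0.97 in TA and 0.21 in heart) and Tceal7 (0.92 and 0.55) also followed Piezo2 less closely in heart. Tnnt1 was 8.69, 36.7, 6.65 and 41.6 TPM in vehicle-treated TA and 17.8, 11.5, 11.7 and 13.9 TPM in D + Q–treated TA, so the 2 vehicle-treated females with the most Piezo2 also had the most Tnnt1. Among TA libraries, Golim4 (15.5 and 17.8 TPM) and Tceal7 (27.0 and 64.2 TPM) were likewise highest in these females. Trpv4 was followed by Gm56350 (0.87), Rn7s1 (0.85) and Dmac1 (0.81), Trpc1 by Gm9057 (0.88), Surf1 (0.88) and Ighm (0.88), and Trpc6 by Tcta (0.90), Agrn (0.89) and Exoc3l (0.88). Each r is the highest of many and is given as a description over 15 libraries.

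No other channel of the TRP family was called under D + Q. Of 24 other TRP channels, 11 passed the filter in TA and 8 in heart, and limma called 0 in either, with 0 and 1 at an unadjusted p under 0.05. Their median log2 fold change was -0.096 in TA and 0.021 in heart, near the -0.072 and -0.0025 of all genes. Between tissues, Trpc4, a receptor-operated channel, was the only one of 11 others tested that was called between the vehicle groups, beside 36.7% of all genes. Its mean was 0.560 TPM in TA and 0.111 TPM in heart (log2 fold change 0.77, adjusted p = 0.0102). Between the D + Q groups 4 of 11 tested were called, or near the 37.3% of all genes. Trpc4 (0.640 against 0.0607 TPM, 0.97, adjusted p = 0.00401), Trpm1, the channel of retinal bipolar cells (0.549 against 0.0125 TPM, 0.97, adjusted p = 0.0184), and Mcoln1, the lysosomal calcium channel (21.1 against 14.5 TPM, 0.52, adjusted p = 0.0038), were higher in TA. Pkd2l2, of the polycystin family, was lower (1.11 against 1.91 TPM, -0.57, adjusted p = 0.0181). Trpc4 and Trpm1 passed the filter only through TA. The call of Trpm1 was lost without D + Q–treated heart replicate 3 (0.95, adjusted p = 0.052), or with labelled sex added (0.79, adjusted p = 0.0864), that of Pkd2l2 with a pseudocount of 1 (-0.45) and without D + Q–treated TA replicate 1 (-0.48) or D + Q–treated heart replicate 1 (-0.41), and that of Mcoln1 after median-of-ratios scaling (0.41) and without D + Q–treated TA replicate 4 (0.43) or D + Q–treated heart replicates 1 (0.49) or 3 (0.47). The values of the scarce Trpc4 and Trpm1 depended on the pseudocount. With 0.1 in place of 0.5, Trpm1 was at 2.36 and Trpc4 at 2.11 between the D + Q groups and Trpc4 at 1.61 between the vehicle groups, and with 1 these values were 0.59, 0.60 and 0.48, the last under the fold that a call required.

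Of 12 other mechanically gated channels, 4 passed the filter, and 0 were called by limma under D + Q in either tissue, with 0 in TA and 1 in heart at an unadjusted p under 0.05. Their medians were -0.29 in TA and 0.031 in heart. Tmem150c, also named tentonin 3, was lower in TA than in heart in both contrasts, at 0.595 against 1.83 TPM under vehicle (log2 fold change -1.13, adjusted p = 0.00051) and 0.392 against 2.01 TPM under D + Q (-1.49, adjusted p = 9.37e-05). It and Trpc1 thus lay on the same side of the tissue difference. In each contrast Tmem150c was the only 1 of the 4 tested that was called. Over all genes, 36.7% were called between the vehicle groups and 37.3% between the D + Q groups.

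A further list held proteins that bind these channels or refill calcium stores. Of 14 channel partners and genes of store-operated entry, 13 were tested, and 0 were called by limma under D + Q in TA or in heart, with 0 and 5 at an unadjusted p under 0.05 (medians -0.017 and -0.11). Between the vehicle groups 8 were called higher in TA and 0 lower (median 0.87), beside 36.7% of all genes called and an all-gene median of 0.16. Between the D + Q groups 9 were called higher and 1 lower (median 0.76), beside 37.3% and 0.094. Stim1, the calcium sensor of the store, was 87.6 TPM in vehicle-treated TA and 9.39 TPM in vehicle-treated heart (log2 fold change 3.16, adjusted p = 1.24e-11), and 86.0 against 8.17 TPM under D + Q (3.32, adjusted p = 1.86e-11). Orai1, the pore that Stim1 opens, was 18.9 against 6.70 TPM under vehicle (1.41, adjusted p = 9.75e-06) and 23.0 against 6.47 TPM under D + Q (1.75, adjusted p = 2.41e-06). Stim2, the other store sensor, was 27.0 against 7.37 TPM under D + Q (1.81, adjusted p = 3.31e-08).

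Downstream of calcium entry, 12 genes of calcineurin, NFAT and calpain were tested. Under D + Q limma called 0 in TA and 0 in heart, with 1 and 3 at an unadjusted p under 0.05, and medians of -0.032 and -0.025. Between the vehicle groups 10 were called higher in TA and 1 lower (median 1.15, beside 36.7% of all genes called and a median of 0.16), and between the D + Q groups 9 higher and 1 lower (median 1.28, beside 37.3% and 0.094). The largest differences were those of Capn3, the calpain of skeletal fibres (45.5 against 0.70 TPM under vehicle, 5.26, adjusted p = 4.45e-14; 44.8 against 0.486 TPM under D + Q, 5.52, adjusted p = 6.97e-14). Capn1, a ubiquitous calpain, was 41.9 against 9.25 TPM under vehicle (2.11, adjusted p = 4.41e-09) and 41.1 against 9.50 TPM under D + Q (2.07, adjusted p = 1.55e-08). Ppp3ca, a catalytic subunit of calcineurin, was 84.5 against 22.7 TPM under vehicle (1.87, adjusted p = 5.41e-10) and 74.3 against 21.9 TPM under D + Q (1.74, adjusted p = 3.45e-09).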

How the data were processed

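Total RNA from TA and heart was made into mRNA libraries (Watchmaker kit) and sequenced paired-end. Reads were trimmed (Trim Galore 0.6.10) and quantified (Salmon 1.10.3, GRCm39) by the authors, who summarised them per gene and deposited TPM for 56980 Ensembl identifiers. The annotation release and strand setting are not given in the sources used here. Of the identifiers, 56236 were found in GENCODE M39, which gave symbols, positions and promoters. TPM is no count, so the study's count test was not run.

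Analysis used R 4.3.3 and limma 3.58.1 (lmFit, eBayes with a trend) on log2(TPM + 0.5), and a gene entered a fit when 3 or more of its libraries reached 0.5 TPM. The surrogate variable of the TA fit was estimated by iterative re-weighting in 5 rounds, written out for these values. Adjustment (Benjamini-Hochberg) was over all genes fitted. The code was tested on simulated data. Library depth is unknown, and precision comes from the spread between libraries alone. No libraries were identical, and correlations within groups ranged from 0.949 to 0.982.

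The channels, the lists (62 genes beside the markers of 10 cell types) and the tests were chosen with earlier results of these data known. Named were the 6 channels, called list genes (all, or the 3 with the largest change where over 5) and the 3 genes most like each channel. A list gene that this rule names is not reported here. Alternatives were pseudocounts of 0.1 and 1, other filters, median-of-ratios scaling, other covariates, no trend in the prior variance, no fold threshold, a replicate block and leaving out each library. Protein sequences were not used here.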

Additional observations from a re-analysis of the deposited data

How the results depend on the processing

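The number of channels called under D + Q was 0 in TA, in heart and for the difference between tissues in all alternatives. Between tissues it was 2 or 3 in the vehicle contrast (main 3), and in the D + Q contrast it was 2 or 3, except 4 without D + Q–treated TA replicate 3 (leave-one-out range 2 to 4, main 2). The calls lost or gained between tissues stand beside those results, and the cause was not tested. Uncalled values near 0 changed sign. In TA, Piezo1 was at 0.068 without the surrogate variable and with the replicate block, Trpv2 at -0.12 with labelled sex and in labelled males, and leaving out single libraries gave values from -0.15 to 0.13 for Trpv2 (-0.078 without D + Q replicate 4 and -0.080 without vehicle replicate 4), from -0.12 to 0.30 for Trpv4 (-0.0052 without D + Q replicate 2, -0.11 without vehicle replicate 1 and -0.066 without vehicle replicate 4) and from -0.31 to 0.00048 for Trpc1. In heart, Piezo1 was at 0.31 with the atrial score, a fit whose median gene was also at 0.31, and Trpv4 at -0.076 in labelled females and without D + Q replicate 3 (leave-one-out range -0.076 to 0.32). The difference of the effects turned for Trpv2 without D + Q–treated TA replicate 3 (0.20), vehicle-treated TA replicate 3 (0.094) or D + Q–treated heart replicate 2 (0.047, range -0.31 to 0.20), for Piezo2 without vehicle-treated TA replicate 1 (-0.041, range -0.041 to 0.33) and for Trpv4 without vehicle-treated TA replicate 3 (0.048).

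Replicate numbers are shared between groups, but same-numbered libraries did not deviate together (correlations between -0.30 and 0.037 over the 4 comparisons). No pairing by number was thus seen, although so few libraries cannot settle whether the numbers share a processing order. With the replicate block the Trpv2 call between the vehicle groups was lost (0.84, adjusted p = 0.0612), leaving 2 channels called, and no other channel changed its call.

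For Trpc6, alternatives were chosen after seeing the data. Its heart difference ranged from -0.266 to -0.165 TPM without single libraries, where 0.0667 or 0.1 is the smallest p possible. Its vehicle tissue difference was -0.19 TPM after median-of-ratios scaling (exact p = 0.0286) and ranged from -0.18 to -0.101 TPM without single libraries, and its D + Q tissue difference from -0.044 to 0.057 TPM, turning to -0.044 without D + Q–treated heart replicate 3. The pseudocount of 0.1 moved Piezo2 in heart to -1.19 (adjusted p = 0.0995). Unknown depth limits what can be said of Trpc6, Trpc4 and Trpm1, whose levels may rest on few reads.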

Other observations

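Among the TRP channels outside the 6 and the genes downstream of calcium entry, 3 were highest in the same TA libraries as Piezo1 and Trpv2. They were chosen after their values were seen. Rcan1, which binds and inhibits calcineurin and is itself an NFAT target, was 357, 62.9, 26.2 and 211 TPM in D + Q–treated TA and 46.4, 27.1, 209 and 37.7 TPM in vehicle-treated TA. Mcoln2, a channel of endosomes and lysosomes found in immune cells, was 14.7, 1.01, 0.303 and 4.24 TPM in D + Q–treated TA and 0.615, 1.30, 5.43 and 0.837 TPM in vehicle-treated TA. Both were highest in D + Q replicates 1 and 4 and vehicle replicate 3, the libraries with the most Piezo1 and Trpv2. Neither was called here between D + Q and vehicle. The study, with its count test on these samples, placed Rcan1 among its most significant increases in D + Q–treated TA. In heart, Rcan1 stayed between 25.9 and 43.1 TPM and Mcoln2 between 0.357 and 0.696 TPM. Trpm1 was likewise highest in vehicle replicate 3 (1.12 TPM) and D + Q replicates 1 and 4 (0.904 and 0.791 TPM), against at most 0.379 TPM in the other TA libraries.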
